A study of Mus musculus with 12 samples.

Results

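Genes of glutathione synthesis and of the Nrf2 antioxidant response were followed in mouse embryonic fibroblasts on the way to induced pluripotent stem cells. The 10 genes are Slc7a11, Gclc, Gclm, Gsr, Gpx2, Gpx3, Nqo1, Hmox1, Txnrd1 and Srxn1. They were taken by symbol from the array annotation, each through the 1 probe set that names it alone, out of 19938 genes measured in all. All 10 had a value on every array, and no filter on low values was applied.

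The fibroblasts came from the OG2 line, which carries a green fluorescent reporter of Oct4, crossed with 129/sv. All cultures received retrovirus in infections on 2 occasions and were kept in mouse embryonic stem cell medium, with day 0 set at the first infection. One arm received the factors called SKO in the labels, taken here as Sox2, Klf4 and Oct4 although the letters are not spelled out, and the other arm received none. In each arm the cells also received microRNA cluster B, microRNA cluster C or a blank control virus, and RNA was taken at day 4 and day 8 after feeder cells had been removed. One whole-transcript Affymetrix array was run per condition, 12 in all, so no condition was repeated. Every SD below is therefore over 3 arrays of different viruses, and p-values measure the spread between these arrays alone. All titles of the arm without SKO carry the tag Group2, so SKO and group cannot be told apart. Each culture was a mixed population, so fewer cells of a type and less RNA per cell cannot be told apart.

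Nrf2, the product of Nfe2l2, is a transcription factor that is held at a low level by Keap1 and the Cul3 ubiquitin ligase. Oxidants and electrophiles relieve that hold, and Nrf2 with a small Maf partner then binds antioxidant response elements near genes of glutathione and thioredoxin metabolism. Glutathione is made from cysteine, glutamate and glycine, and the supply of cysteine, much of it imported as cystine, commonly limits its synthesis in cultured fibroblasts.

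Values are the deposited log2 intensities after RMA, a method that removes background, brings arrays to a common distribution and combines the probes of a set. Array medians lay between 4.98 and 5.07 and lower quartiles between 3.48 and 3.68. A difference from a value near or below the lower quartile is best read as a lower bound. A gene rose or fell where the Benjamini-Hochberg adjusted p of limma, fitted over the 12 arrays and adjusted over 19938 genes, was under 0.05, and the values after ± are SE of that fit unless named SD. The 12 fibroblast markers read as a check of the labels averaged 10.30 to 10.88 on arrays without SKO and 9.45 to 9.76 on arrays with it.

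Promoter windows from RefSeq (GRCm38.p6), running from 250 bases before to 50 bases after each start site, were held for 7 of the 10 genes; Hmox1, Gclc and Gsr had no entry. They are shown because many of these genes are known for control through short response elements. The antioxidant response element core TGACNNNGC, searched on both strands, occurred in windows of 3 genes, against 12.4% of the 32851 windows and 14% of the 27025 genes in the table. The matches were read on the plus strand and lie on the opposite strand to the searched letters, with the core in capitals.
Gclm, chr3:122245414-122245440: ctcccgggcGCACCGTCAactctcacg
Txnrd1, chr10:82859105-82859131: tggatttttGCTTTGTCAttctgacac
Srxn1, chr2:152105543-152105569: cagtgggcaGCTAGGTCAgagtgagac
Among the 7 genes, the windows of Nqo1, Gpx2, Gpx3 and Slc7a11 did not hold these letters, and the Txnrd1 match lay in 1 of 3 windows of that gene. The Slc7a11 window held the C/EBP-ATF response element TGATGCAA on 2 occasions, once on each strand. This element was chosen after the sequence was seen, and it occurred in 0.895% of all windows. The stretch, on the minus strand, carries both copies in capitals.
Slc7a11, chr3:50443638-50443694: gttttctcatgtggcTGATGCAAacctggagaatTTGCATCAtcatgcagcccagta
A match, or the lack of one, describes the letters of these windows only. Sequence outside the windows was not searched, and binding was not measured.

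The comparison of SKO with no SKO asks how the genes stood in cells undergoing reprogramming. At day 4, 4 of the 10 genes rose and 2 fell, where 18.9% of all genes passed (9.52% higher, 9.4% lower). These 4 and 2 genes were also the ones whose 3 arrays with SKO lay all above or all below the 3 without it, as 15.8% (higher) and 17.9% (lower) of all genes did. At day 8, 5 rose and 2 fell, where 26.1% of all genes passed (13.4% higher, 12.7% lower), and the same 7 had no overlap between the arms, beside 20.7% (higher) and 24.2% (lower) of all genes. Slc7a11 (cystine import), Gclm (glutathione synthesis), Gsr (glutathione recycling) and Nqo1 rose on both days, Gclc rose at day 8, and Hmox1 and Gpx3 fell on both days. Gpx2, Txnrd1 and Srxn1 passed on neither day. The median difference of the 10 genes was 0.35 at day 4 and 0.37 at day 8, beside -0.04 and -0.07 over all genes.

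**Figure D1:**
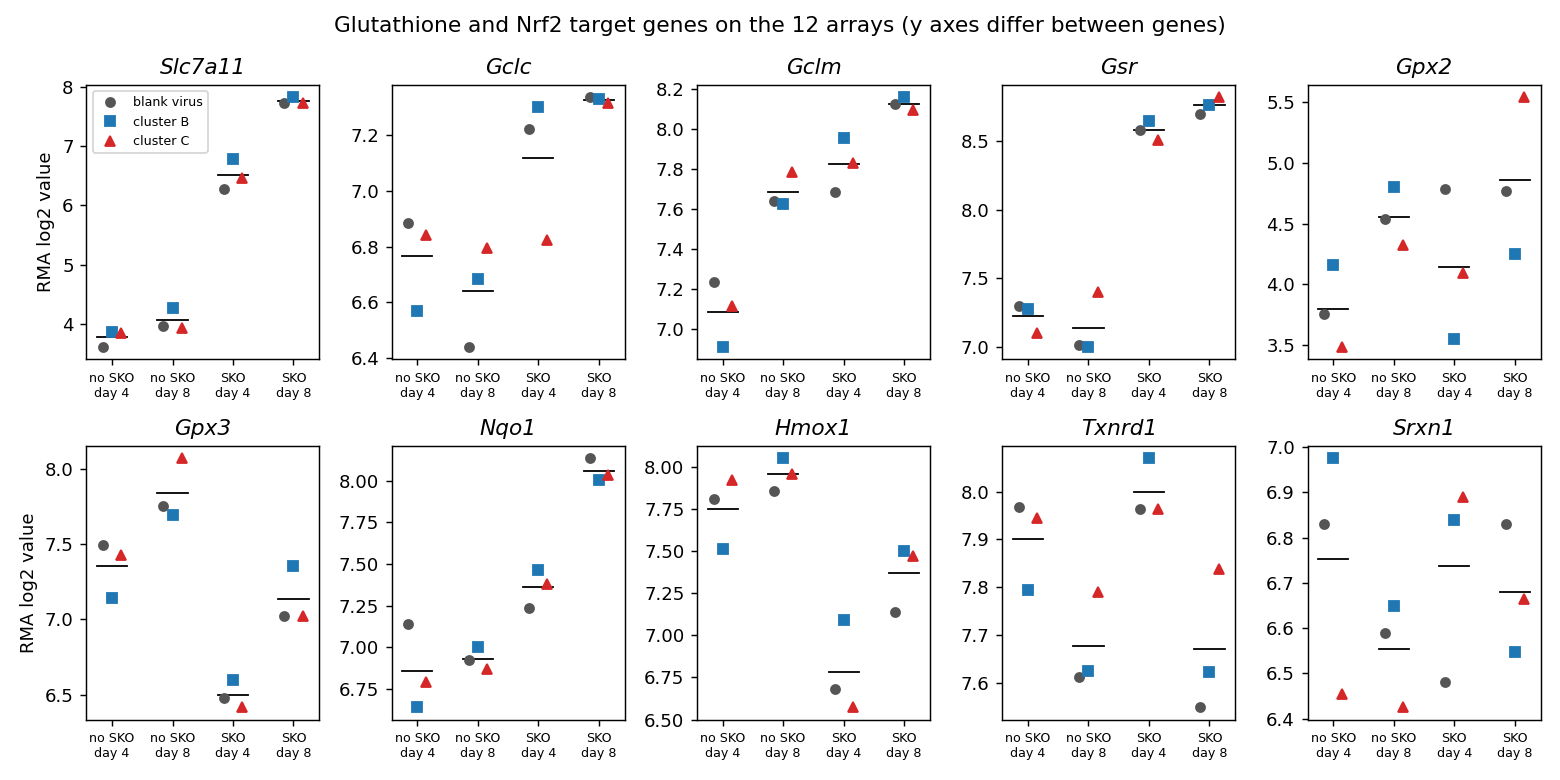
RMA log2 values of the 10 genes on the 12 arrays, by SKO and day, with blank virus (circles), cluster B (squares) and cluster C (triangles); bars are means of 3 arrays and the y axes differ between genes. Slc7a11 lies at 6.27 or above with SKO and at 4.27 or below without it, while Hmox1 and Gpx3 lie lower with SKO on each day.

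Slc7a11 encodes the light chain of the cystine and glutamate exchanger xCT, which brings in cystine for glutathione synthesis. With SKO it stood at 6.27 with blank virus, 6.79 with cluster B and 6.46 with cluster C at day 4, and at 7.73, 7.83 and 7.73 at day 8. Without SKO the same viruses gave 3.61, 3.86 and 3.84 at day 4, and 3.97, 4.27 and 3.93 at day 8. Every array with SKO lay above every array without it, and the values without SKO were close to the lower quartiles of their arrays. The difference was 2.74 ± 0.12 at day 4 (6.67-fold, adjusted p = 1.73e-06 by limma) and 3.71 ± 0.12 at day 8 (13.1-fold, adjusted p = 2.36e-07 by limma). Both folds are best read as lower bounds, given the values without SKO. Slc3a2, the heavy chain that holds xCT at the plasma membrane, ran from 9.17 to 9.67 with SKO and from 8.91 to 9.35 without it. Its difference did not pass at day 4 (0.31 ± 0.11, adjusted p = 0.0785 by limma) or at day 8 (0.29 ± 0.11, adjusted p = 0.0817 by limma).

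Gclc and Gclm encode the catalytic and the modifier subunit of glutamate-cysteine ligase, the rate-limiting enzyme of glutathione synthesis. Gclm read 7.69 with blank virus, 7.95 with cluster B and 7.83 with cluster C at day 4 with SKO, and 7.23, 6.91 and 7.11 without it. At day 8 it read 8.13, 8.16 and 8.10 with SKO, and 7.64, 7.63 and 7.79 without it. The arms did not overlap on either day. Gclm rose by 0.74 ± 0.11 at day 4 (adjusted p = 0.00138 by limma) and by 0.44 ± 0.11 at day 8 (adjusted p = 0.0152 by limma). The day 8 call was lost when the array with SKO and blank virus (0.37), SKO and cluster C (0.46), blank virus alone (0.35) or cluster C alone (0.48) of that day was left out, with adjusted p between 0.0502 and 0.112.

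Gclc read 7.22, 7.30 and 6.82 with SKO at day 4 for blank virus, cluster B and cluster C, and 6.88, 6.57 and 6.84 without SKO. At day 8 the values were 7.33, 7.33 and 7.31 with SKO, and 6.44, 6.68 and 6.79 without it. The arms overlapped at day 4 through the cluster C array with SKO and were apart at day 8. The difference of 0.35 ± 0.14 at day 4 did not pass (adjusted p = 0.118 by limma), though it did with a mean-variance trend and robust empirical Bayes (adjusted p = 0.0392 by limma) or dim genes left out (adjusted p = 0.0497 by limma), and at day 8 Gclc rose by 0.69 ± 0.14 (adjusted p = 0.00595 by limma). Gss, which joins glycine in the last step of glutathione synthesis, had a difference of -0.18 at day 4 and -0.06 at day 8 and did not pass.

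Gsr encodes glutathione reductase, which returns oxidised glutathione to its reduced form with NADPH. With SKO it averaged 8.58 ± 0.07 (SD, n = 3) at day 4 and 8.76 ± 0.06 (SD, n = 3) at day 8, and its 6 values ran from 8.51 to 8.82. Without SKO the averages were 7.23 ± 0.11 (SD, n = 3) and 7.14 ± 0.22 (SD, n = 3), and the highest of the 6 values was 7.40, with cluster C at day 8. The arms were apart by over 1 log2 unit on every pair of arrays with the same virus and day. Gsr rose by 1.35 ± 0.13 at day 4 (2.55-fold, adjusted p = 0.000136 by limma) and by 1.62 ± 0.13 at day 8 (3.07-fold, adjusted p = 2.66e-05 by limma).

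Gpx2 and Gpx3 encode selenium-dependent glutathione peroxidases, the first an enzyme of epithelia and the second a secreted one. Gpx3 read 6.48, 6.60 and 6.42 with SKO at day 4 for blank virus, cluster B and cluster C, and 7.03, 7.35 and 7.02 at day 8. Without SKO it read 7.49, 7.14 and 7.43 at day 4, and 7.75, 7.69 and 8.07 at day 8. On each day all arrays with SKO lay below all arrays without it. Gpx3 fell by 0.86 ± 0.11 at day 4 (adjusted p = 0.000685 by limma) and by 0.70 ± 0.11 at day 8 (adjusted p = 0.00154 by limma).

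Gpx2 varied between the viruses on both days. With SKO it read 4.79, 3.55 and 4.10 at day 4 for blank virus, cluster B and cluster C, and 4.77, 4.25 and 5.54 at day 8. Without SKO it read 3.75, 4.16 and 3.49 at day 4, the last of these below the lower quartile of its array, and 4.54, 4.80 and 4.32 at day 8. The arms overlapped on both days. The difference was 0.34 ± 0.22 at day 4 (adjusted p = 0.344 by limma) and 0.30 ± 0.22 at day 8 (adjusted p = 0.35 by limma). Single arrays decided its sign and its call. When the blank virus array with SKO of the same day was dropped, the difference became -0.018 at day 4 and 0.66 at day 8 (adjusted p = 0.0434 by limma). When the cluster C array with SKO was dropped, it became 0.71 at day 4 (adjusted p = 0.0339 by limma) and -0.066 at day 8.

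Nqo1, the quinone reductase that is a classic reporter of Nrf2 activity, rose with SKO. It read 7.24, 7.46 and 7.38 with SKO at day 4 for blank virus, cluster B and cluster C, against 7.14, 6.64 and 6.79 without it. At day 8 the values were 8.14, 8.01 and 8.04 with SKO, against 6.92, 7.0 and 6.87. The arms were separate on both days, narrowly at day 4, where the blank virus pair differed by 0.10. The rise was 0.51 ± 0.13 at day 4 (1.42-fold, adjusted p = 0.0259 by limma) and 1.13 ± 0.13 at day 8 (2.19-fold, adjusted p = 0.000244 by limma). At day 4 the call was lost without the array of either cluster in either arm: the rise was 0.43 without SKO and cluster B, 0.48 without SKO and cluster C, 0.36 without cluster B alone and 0.50 without cluster C alone, with adjusted p between 0.104 and 0.160.

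Hmox1 encodes heme oxygenase, which breaks heme down to biliverdin, iron and carbon monoxide. It read 6.68, 7.09 and 6.57 with SKO at day 4 for blank virus, cluster B and cluster C, against 7.81, 7.51 and 7.92 without it. At day 8 it read 7.14, 7.5 and 7.47 with SKO, against 7.86, 8.05 and 7.96. Every array with SKO lay below every array without it. Hmox1 fell by 0.97 ± 0.14 at day 4 (1.96-fold, adjusted p = 0.00137 by limma) and by 0.59 ± 0.14 at day 8 (1.5-fold, adjusted p = 0.0145 by limma). At day 8 the call did not hold when 1 array of that day was dropped: blank virus with SKO (-0.52), cluster B with SKO (-0.50) or cluster B alone (-0.42), with adjusted p between 0.0798 and 0.0943.

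Markers of several cell types moved with SKO as well, where 18.9% of all genes passed at day 4 and 26.1% at day 8. Beside Hmox1 and Gpx3, lists fell. Of 12 fibroblast markers, 8 fell and 1 rose with SKO at day 4, and 9 fell at day 8. Of 9 leukocyte and macrophage markers, 2 fell and 1 rose at day 4, and 7 fell and 1 rose at day 8, with mean levels of 4.83 to 4.93 with SKO and 4.83 to 5.48 without it. For blank virus, cluster B and cluster C these levels were 4.83, 4.90 and 4.86 with SKO at day 4, and 4.83, 5.02 and 5.13 without it. At day 8 they were 4.93, 4.86 and 4.83 with SKO, and 5.48, 5.38 and 5.29 without it. Ptprc, which defines leukocytes, ran from 3.56 to 4.42 over the 12 arrays, and Lyz2, a macrophage gene, from 6.07 to 8.04. Of 6 adipocyte markers, 2 fell at day 4 and 4 at day 8, with mean levels of 4.07 to 4.47 with SKO and 4.43 to 5.12 without it, and Adipoq, a defining one, lay below the lower quartile on all 12 arrays. Of 6 smooth muscle markers, 5 fell at day 4 and all 6 at day 8. Other lists rose beside Slc7a11, Gsr, Gclm, Nqo1 and Gclc. Of 8 epithelial markers, 4 rose at day 4 (median of the list 0.39) and all 8 at day 8 (median 1.80), with mean levels of 4.97 to 7.10 with SKO and 4.55 to 4.85 without it. Of 10 pluripotent cell markers, 1 rose at day 4 (median -0.20) and 5 at day 8 (median 1.14), with mean levels of 3.94 to 6.78 with SKO and 3.89 to 4.17 without it. Of 7 endothelial markers, 1 rose on each day (highest difference 3.87 and 3.58, median -0.03 and 0.21). Their mean levels were 4.35 to 4.70 with SKO and 3.91 to 4.09 without it. Of 8 keratinocyte markers, 1 rose and 1 fell at day 4, and 2 rose and 1 fell at day 8. The part of these markers in these results was not tested.

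Txnrd1 and Srxn1 encode thioredoxin reductase and sulfiredoxin, which keep thioredoxin and peroxiredoxins in working order. Txnrd1 read 7.96, 8.07 and 7.96 with SKO at day 4 for blank virus, cluster B and cluster C, against 7.97, 7.79 and 7.94 without it. At day 8 it read 7.55, 7.62 and 7.84 with SKO, against 7.61, 7.62 and 7.79. The arms overlapped on both days. The difference was 0.10 at day 4 (95% interval -0.15 to 0.34) and -0.01 at day 8 (-0.25 to 0.24). Srxn1 ran from 6.48 to 6.89 with SKO and from 6.42 to 6.98 without it. Its difference was -0.02 at day 4 (95% interval -0.33 to 0.30) and 0.13 at day 8 (-0.19 to 0.44). Differences within those bounds could not be told from 0 here.

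**Figure D2:**
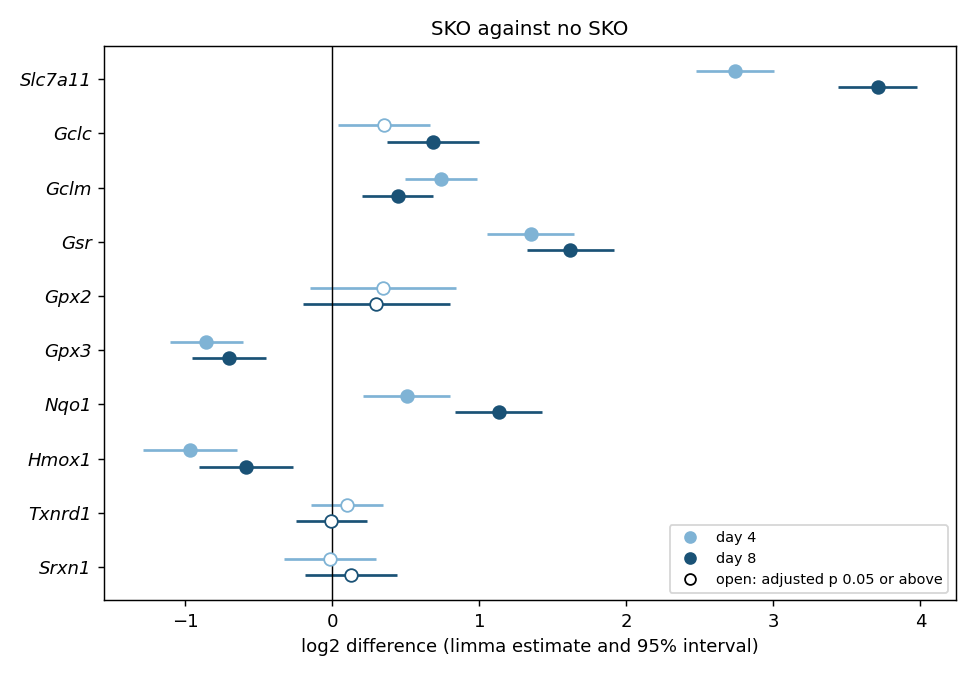
Log2 difference between SKO and no SKO for the 10 genes at day 4 and day 8, as limma estimates with 95% intervals; filled points passed an adjusted p under 0.05. Slc7a11 stands at 2.74 and 3.71, Gsr at 1.35 and 1.62, and Hmox1 and Gpx3 below 0.

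Of 14 measured genes for regulators of Nrf2, 3 rose and 2 fell with SKO at day 4, beside the 18.9% of all genes that passed, and 1 rose at day 8, beside 26.1%. Under 7 other settings of the fit the count that rose at day 8 was 1 to 4, and it changed in 2 of them. Nfe2l2 itself stood at 7.97, 8.23 and 8.17 with SKO at day 4 for blank virus, cluster B and cluster C, against 7.45, 7.63 and 7.37 without it. It rose by 0.64 ± 0.13 (adjusted p = 0.00755 by limma), and its difference of 0.22 at day 8 did not pass. The day 4 call was lost without the array with SKO and cluster B (0.56), SKO and cluster C (0.57) or blank virus alone (0.53), with adjusted p up to 0.0635. Keap1, the repressor that targets Nrf2 for degradation, had a difference of -0.06 at day 4 and -0.06 at day 8 and did not pass. RNA levels do not report the amount or location of the Nrf2 protein, which were not measured.

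Sqstm1 encodes p62, which binds Keap1 and is itself an Nrf2 target. It ran from 10.07 to 10.24 with SKO at day 8 and from 9.28 to 9.42 without it. It rose by 0.80 ± 0.10 at day 8 (adjusted p = 0.000462 by limma), and its difference of 0.11 at day 4 did not pass. Maff, a small Maf partner, rose by 0.57 at day 4, and Cul3, the ligase scaffold, rose by 0.34. Btrc, part of a second route of Nrf2 degradation, fell by 0.38, and Nfe2l1, a relative of Nrf2, fell by 0.35. These 4 day 4 calls were lost when single arrays were left out: 4 of the 12 arrays for Maff, 10 for Cul3, 6 for Btrc and 8 for Nfe2l1, with adjusted p up to 0.120, 0.186, 0.137 and 0.147. Each loss included all day 4 arrays for Btrc and Nfe2l1, those with SKO and cluster B or C and with blank virus or cluster B alone for Maff, and every array but those of blank virus and cluster B alone at day 8 for Cul3. The Maff call also ended with no SKO by virus term, and the Cul3 call with equal array medians. Bach1, Bach2, Mafg, Mafk, Rbx1, Park7 and Crebbp did not pass on either day.

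Among the enzymes that handle glutathione outside the 10 genes, members moved both ways. Of 17 measured, 1 rose and 6 fell at day 4, and 6 rose and 6 fell at day 8, with medians of -0.18 and -0.06. The share of all genes that passed was 18.9% at day 4 and 26.1% at day 8. Glrx, a glutaredoxin that reduces glutathione-bound proteins, fell by 0.84 ± 0.13 at day 4, and Gpx7, a peroxidase of the endoplasmic reticulum, fell by 0.75 ± 0.10. At day 8 the lowest were Ggt5, a glutamyl transferase at the cell surface, which fell by 1.21 ± 0.11, and Gpx8, another peroxidase of the endoplasmic reticulum, which fell by 0.96 ± 0.10. At day 8 Hagh, a hydrolase of the glyoxalase system, rose by 0.75 ± 0.10, and Gpx1, the cytosolic peroxidase, rose by 0.54 ± 0.11, a call lost without the blank virus array with SKO of day 8 (0.47, adjusted p = 0.0575 by limma). Without any 1 array of day 8 the count that rose there was 1 to 3, and without either cluster B array of day 4 the count that fell on that day was 3.

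The glutathione transferases, which attach glutathione to electrophiles, had 5 of 20 measured members higher and 5 lower at day 4, and 10 higher and 2 lower at day 8. Beside them, 18.9% of all genes passed at day 4 and 26.1% at day 8. The median difference of the transferases was 0.00 at day 4 and 0.38 at day 8. Gsta4 ran from 9.20 to 10.37 with SKO and from 8.11 to 8.37 without it. It rose by 1.22 ± 0.10 at day 4 and by 1.94 ± 0.10 at day 8 (adjusted p = 1.78e-06 by limma). Gsta3 rose by 1.87 ± 0.15 at day 8, and Mgst3, a microsomal member, rose by 1.14 ± 0.12 at day 4. Gstt1 fell by 1.07 ± 0.16 and Gstm2 by 0.64 ± 0.10 at day 8. Without any 1 array of day 4 the count that fell on that day was 1 to 3. Gene family members with similar sequence can share probes, so values within the alpha and mu classes are uncertain.

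**Figure D3:**
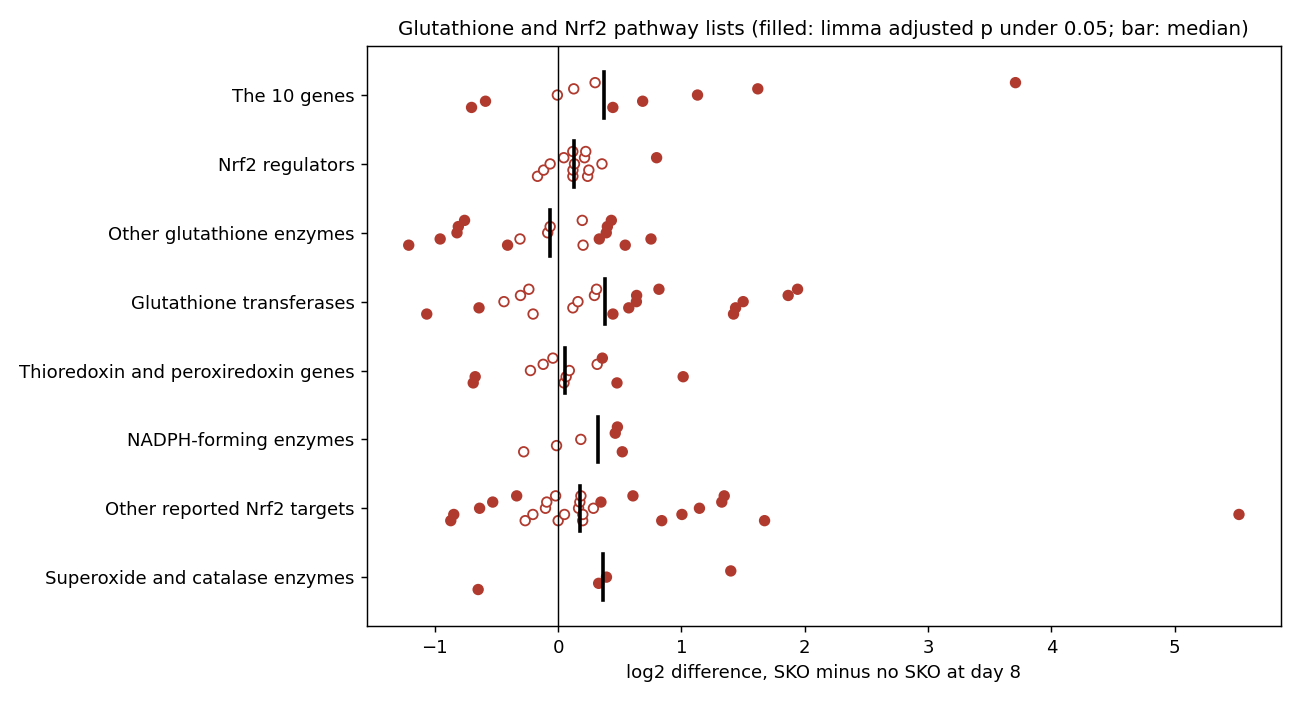
Log2 difference between SKO and no SKO at day 8 for every measured gene of 8 lists, with 1 point per gene, filled where limma's adjusted p was under 0.05, and the median as a bar. Points lie on both sides of 0 in each of the 8 lists, and Aldh3a1 among the other Nrf2 targets and Slc7a11 among the 10 genes lie farthest right.

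Of 27 other genes reported as Nrf2 targets, 7 rose and 5 fell at day 4, and 9 rose and 5 fell at day 8, with medians of -0.10 and 0.18. Over all genes 18.9% passed at day 4 and 26.1% at day 8. Aldh3a1, an aldehyde dehydrogenase abundant in cornea, ran from 9.73 to 10.05 with SKO and from 4.08 to 4.59 without it. It rose by 5.44 ± 0.15 at day 4 and by 5.52 ± 0.15 at day 8 (adjusted p = 1.49e-07 by limma). Cd36, a scavenger receptor and fatty acid carrier, rose by 1.76 ± 0.12 at day 4 and by 1.67 ± 0.12 at day 8. Akr1b8, an aldo-keto reductase, fell by 1.20 ± 0.10 at day 4 and by 0.87 ± 0.10 at day 8. Ptgr1, a prostaglandin reductase, fell by 0.91 ± 0.11 at day 4 and by 0.85 ± 0.11 at day 8. The day 4 counts became 4 and 3 without the cluster B array with SKO of that day, and 4 rose without the cluster C array alone.

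Of 12 thioredoxin and peroxiredoxin genes, 2 fell and none rose at day 4, and 3 rose and 2 fell at day 8. Over all genes 18.9% and 26.1% passed on these days. Sesn3, a sestrin, fell by 1.23 ± 0.11 at day 4 and by 0.67 ± 0.11 at day 8. Prdx4, the peroxiredoxin of the endoplasmic reticulum, fell by 0.69 ± 0.10 at day 8, and Txnip, the inhibitor of thioredoxin, rose by 1.01 ± 0.11. The count that rose at day 8 was 1 without the day 8 array of blank virus or cluster C with SKO, or of blank virus or cluster B alone. At day 4, 1 fell without cluster C with SKO, blank virus alone or cluster B alone of that day, and 1 rose without cluster B with SKO of day 8. Of 6 enzymes that form NADPH, the reductant used by Gsr and Txnrd1, none passed limma's test at day 4, where 18.9% of all genes did and 3 of the 6 had an unadjusted p under 0.05, beside 6109 of all 19938 genes; up to 4 passed under the other settings of the fit. At day 8, 3 rose and none fell, and 1 fell with no SKO by virus term, with the trend and robust setting, with quantile normalization and with dim genes left out. Those that rose were Pgd (0.52 ± 0.11), Me1 (0.48 ± 0.10) and Idh1 (0.46). Idh1 no longer passed when cluster B or C with SKO of day 8 was dropped, or blank virus or cluster C alone (0.39 to 0.46, adjusted p up to 0.0831). Pgd was lost without blank virus or cluster C alone of day 8 (0.44 and 0.49, adjusted p up to 0.0556), which left 1 gene of the list.

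Of 4 superoxide dismutase and catalase genes, 2 rose at day 4, and 3 rose and 1 fell at day 8. Among all genes 18.9% passed at day 4 and 26.1% at day 8. Sod2, the mitochondrial enzyme, rose by 1.25 ± 0.10 at day 4 and by 1.40 ± 0.10 at day 8. The day 8 count that rose was 1 without any array of that day other than blank virus alone, and the gene that fell, Sod3, was lost without cluster B or C with SKO or blank virus alone of day 8 (adjusted p up to 0.0747). Cat, the catalase gene, rose by 0.33 at day 8. Its call was lost without 11 of the 12 arrays (adjusted p up to 0.238 by limma). It was also lost under 2 of 7 other settings of the fit.

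The comparison of day 8 with day 4 asks how the genes moved with time in each arm. With SKO, 4 of the 10 genes rose and none fell, where 8.9% of all genes passed (5.24% higher, 3.66% lower). Without SKO, 2 rose and none fell, where 8.68% of all genes passed (4.05% higher, 4.63% lower). The median day difference of the 10 genes was 0.45 with SKO and 0.14 without it, beside -0.01 and 0.01 over all genes. The group means over 3 arrays moved from 6.51 to 7.76 for Slc7a11, from 7.36 to 8.06 for Nqo1, from 6.50 to 7.14 for Gpx3 and from 6.78 to 7.37 for Hmox1 with SKO. All arrays of day 8 lay above all arrays of day 4 for 7 genes with SKO (these 4, Gclc, Gclm and Gsr) and below them for Txnrd1, beside 14.2% (higher) and 14% (lower) of all genes. Without SKO they lay above for 4 genes (Gclm, Gpx2, Gpx3 and Slc7a11) and below for Txnrd1, beside 14.3% and 15.8%.

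Slc7a11 rose with time in the arm with SKO by 1.25 ± 0.12 (2.39-fold, adjusted p = 0.000437 by limma). Nqo1 rose there by 0.70 ± 0.13 (adjusted p = 0.0125), Gpx3 by 0.64 ± 0.11 (adjusted p = 0.00883) and Hmox1 by 0.59 ± 0.14 (adjusted p = 0.0347), by the same limma fit. Hmox1 and Gpx3 thus rose with time in the arm where they were lower. Their day change with SKO minus that without it did not pass by limma. It was 0.38 for Hmox1 (adjusted p = 0.372) and 0.15 for Gpx3 (adjusted p = 0.665). From day 4 to day 8 with SKO all 8 epithelial markers rose (median of the list 1.48), as did 5 of 10 pluripotent cell markers (median 0.98). Of all genes 5.24% rose there, and the part of these markers in the result was not tested. The Hmox1 call was lost without any array of the arm with SKO and without either array of cluster C alone (0.43 to 0.68, adjusted p up to 0.181). The Nqo1 call was lost without either blank virus array with SKO (0.60) or either cluster C array with SKO (0.72), with adjusted p up to 0.0961. The Gpx3 call was lost without either array of SKO and cluster B (0.58, adjusted p = 0.0709 by limma).

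In the arm without SKO, Gclm rose with time by 0.60 ± 0.11 (adjusted p = 0.0123 by limma) and Gpx3 by 0.48 ± 0.11 (adjusted p = 0.0302 by limma). Gclm was lost without either array of cluster B alone (0.54) or cluster C alone (0.56), with adjusted p up to 0.0819. Gpx3 was lost without any array of the arm without SKO or either blank virus array with SKO (0.40 to 0.59, adjusted p up to 0.163), and also when each arm was fitted alone or the SKO by virus term was dropped (adjusted p = 0.0739 and 0.0642 by limma). In these cells 3 of 12 fibroblast markers rose with time too and none fell (median of the list 0.03), beside 4.05% of all genes. The list mean went from 10.43 to 10.71 with blank virus, 10.30 to 10.75 with cluster B and 10.42 to 10.88 with cluster C. Of other lists, 2 of 9 leukocyte and macrophage markers, 3 of 6 adipocyte markers and 1 of 7 endothelial markers rose. The part of these markers in the result was not tested. Gpx2 had day differences of 0.71 with SKO and 0.75 without it that did not pass (adjusted p = 0.086 and 0.0693 by limma). Without SKO it passed when each arm was fitted alone (adjusted p = 0.0176 by limma). Both differences passed with a mean-variance trend and robust empirical Bayes (adjusted p = 0.0316 with SKO and 0.0229 without it by limma). Those differences passed without either blank virus array of the arm with SKO (1.07 with SKO, adjusted p = 0.0199; 0.75 without SKO, adjusted p = 0.0269) and, in the arm without SKO, without either cluster C array of the other arm (0.75, adjusted p = 0.0221). Txnrd1 was lower at day 8 on every array in both arms, at -0.33 ± 0.11 with SKO and -0.23 ± 0.11 without it, and did not pass (adjusted p = 0.0986 and 0.237 by limma). With SKO it passed as lower with a mean-variance trend and robust empirical Bayes (adjusted p = 0.0184 by limma) and with dim genes left out (adjusted p = 0.0329 by limma).

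**Figure D4:**
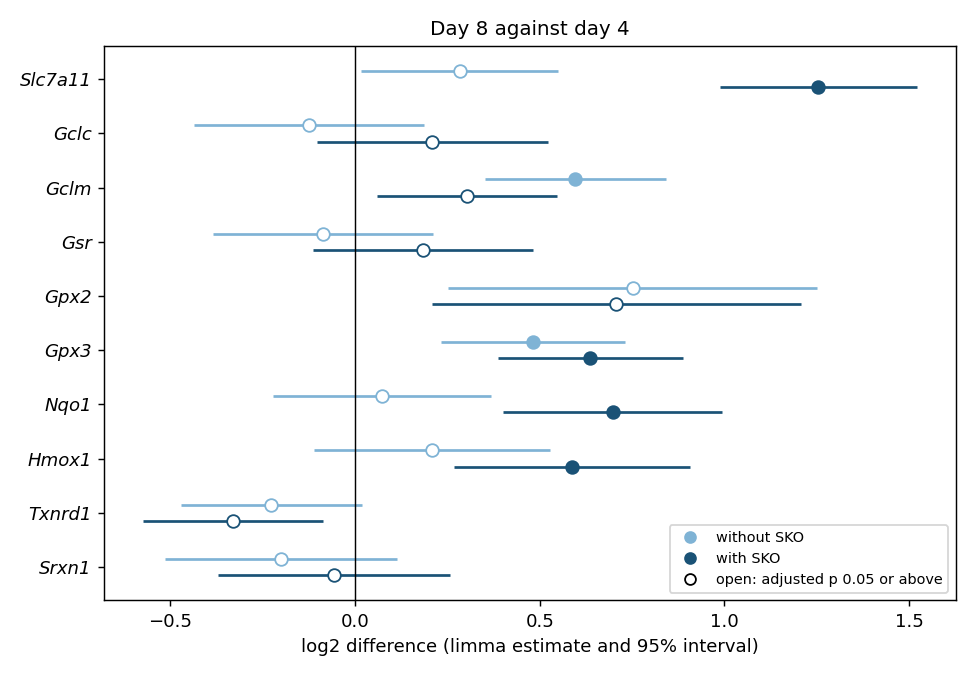
Log2 difference between day 8 and day 4 for the 10 genes with and without SKO, as limma estimates with 95% intervals; filled points passed an adjusted p under 0.05. Slc7a11 with SKO lies farthest right at 1.25, and the intervals of the 2 arms are apart for Slc7a11 and Nqo1.

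The difference between the arms in the change with time was tested as an interaction. Slc7a11 alone of the 10 genes passed, where 2.97% of all genes did (1.97% higher). Its day change was 0.97 ± 0.17 larger with SKO than without it (adjusted p = 0.0188 by limma). That call was kept without each of the 4 arrays of cluster B and lost without each of the other 8 (0.87 to 1.01, adjusted p up to 0.0771). In those 8 fits 230 to 271 of all genes passed, against 592 with all 12 arrays. The Slc7a11 values without SKO lay close to the lower quartiles of their arrays. Its day change there may therefore be understated, and its interaction overstated. Nqo1 had an interaction of 0.62 ± 0.18 that did not pass (adjusted p = 0.12 by limma). Among the other pathway genes, Txnip had an interaction of 1.32 ± 0.15 (adjusted p = 0.0031 by limma), and Sqstm1 one of 0.69 ± 0.15 (adjusted p = 0.0418 by limma), which was lost without any 1 of the 12 arrays (0.63 to 0.76, adjusted p up to 0.151).

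The microRNA clusters were compared with the blank virus and with each other in each arm. None of the 10 genes passed limma's test in any of the 8 such comparisons, where 0.01% of all genes passed for cluster B against blank virus with SKO, 0.0201% for cluster C against blank virus, 0.0201% for cluster C against cluster B, and 0% in each of the 5 others. At an unadjusted p under 0.05 the count was 1 gene for cluster B against blank virus and for cluster C against cluster B with SKO, 1 for cluster C against cluster B without SKO, 1 for the cluster B effect with minus without SKO, and 0 in the 4 others. Over all 19938 genes, the first 4 of these comparisons had 614, 1102, 1260 and 1036 genes at that threshold. With SKO, the differences of the 9 genes other than Gpx2 ran from 0.04 to 0.39 for cluster B and from -0.21 to 0.15 for cluster C, and their 95% intervals lay within -0.35 to 0.78 and -0.59 to 0.51. Slc7a11 lay at 6.27 or above with SKO under each of the 3 viruses.

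Gpx2 had the widest differences between viruses. With SKO it was lower with cluster B than with blank virus by 0.88 ± 0.27 (95% interval -1.49 to -0.26), and higher with cluster C than with cluster B by 0.91 ± 0.27. Neither passed the adjustment over all genes (adjusted p = 1.0 and 0.841 by limma). Its highest value, 5.54, came from cluster C with SKO at day 8. That array had the highest mean level of 8 epithelial markers (7.10) and of 10 pluripotent cell markers (6.78) of the 12 arrays, and the part of those cells in the value was not tested.

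**Figure D5:**
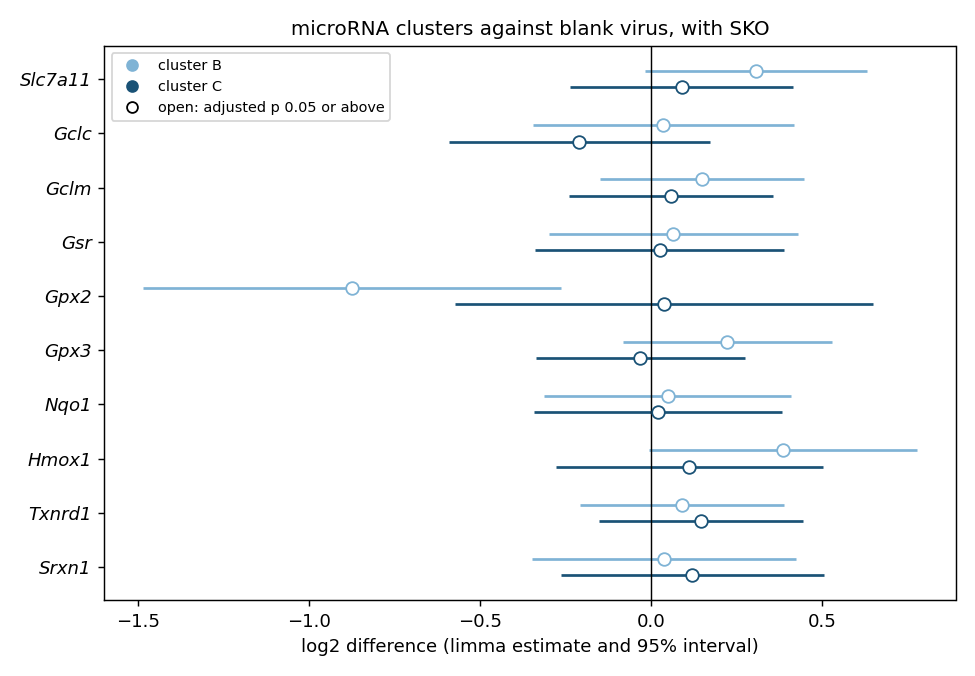
Log2 difference of cluster B and cluster C from blank virus with SKO for the 10 genes, as limma estimates with 95% intervals; open points did not pass an adjusted p under 0.05. No point is filled, and Gpx2 with cluster B lies farthest from 0 at -0.88.

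By Pearson correlation over the 12 arrays, the 5 genes outside the group most like Slc7a11, whose range of 4.22 was the widest of the 10, were Aspa (0.998), Atp2a3 (0.997), Abca6 (0.997), Plekha6 (0.996) and Pipox (0.996). The arrays fall into 2 arms that lie far apart for Slc7a11, so these values mostly describe a shared difference between the arms and are given as a description. Aspa ran from 6.66 to 9.04 with SKO and from 2.63 to 3.29 without it.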

How the data were processed

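The deposited table holds 28853 probe sets on 12 arrays as log2 values that the authors had normalized; the submitters' processing notes list RMA and Partek, and the genome build is not given in the sources used here. In the platform annotation 21789 probe sets had 1 gene, 1621 several and 5443 none. Only the first were used, and the brightest probe set of a gene was kept, giving 19938 genes. Of the probe sets, 21698 matched RefSeq through Entrez identifiers.

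One limma 3.58.1 fit (R 4.3.3) over 12 arrays had terms for SKO, day, cluster, SKO by day and SKO by cluster. It left 4 residual degrees of freedom, to which empirical Bayes added 4.94. The spread is therefore how much cluster effects differ between days. In total 13 comparisons were adjusted by Benjamini-Hochberg, each over all genes. The fit was tested on simulated data with independent normal noise, for SKO against no SKO at day 8 only. In that simulation 200 genes were changed, and the other comparisons were not tried. Python 3.11.15 with pandas 2.3.3 and matplotlib 3.10.9 drew the figures.

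The genes and lists were chosen with earlier results of these data known. Of 185 listed genes 176 were measured. Named are the 10 genes, all measured Nrf2 regulators, up to 2 highest and 2 lowest genes of other lists, defining markers, and the 5 genes most like Slc7a11. Slc3a2, Gss, Idh1, Sod3 and Cat fall outside this rule and were chosen after their values were seen. The number of arrays limits the precision.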

Additional observations from a re-analysis of the deposited data

Results flagged for a closer look

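A change with time that differed between the arms with and without SKO, by the interaction term of limma, was found for 8 of 110 pathway genes (the 10 genes and the 100 measured in the other pathway lists), beside 2.97% of all genes; the value is the day change with SKO minus that without it. It was 0.97 for Slc7a11 (adjusted p = 0.0188) and 1.32 for Txnip (adjusted p = 0.0031). For Oplah, the oxoprolinase that returns glutamate from the glutathione cycle, it was 0.93 (adjusted p = 0.0193). The others were Sqstm1 at 0.69 (adjusted p = 0.0418), Gsta4 at 0.72 (adjusted p = 0.0280), Gstm1 at 0.78 (adjusted p = 0.0451), Gstm3 at 0.81 (adjusted p = 0.0333) and Abcc5, a transporter of conjugates, at 0.78 (adjusted p = 0.0446). When each array was left out in turn, Txnip passed in all 12 fits, Slc7a11 in 4, and Oplah and Abcc5 in 2 each. Sqstm1, Gsta4, Gstm1 and Gstm3 passed in 0 of those fits. Leaving out the day 4 or the day 8 array of the same arm and virus gave the same interaction value and adjusted p. The counts of fits therefore come in pairs. With the mean over the probe sets of a gene, Gstm3 was 0.30 and did not pass. Gstm1 did not pass with quantile normalization, nor Abcc5 with no SKO by virus term.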

How the results depend on the processing

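Of 965 alternative values for 50 results on single genes (10 genes in the SKO, day and interaction comparisons), 872 kept direction and side of the threshold, 47 lost the call, 19 gained it and 27 changed sign. The changes of sign were of differences that had not passed. With equal array medians Txnrd1 for SKO at day 8 was 0.0023 (main value -0.0063). Leaving out each array in turn gave, for SKO at day 4, -0.018 to 0.71 for Gpx2 and -0.14 to 0.19 for Srxn1. For SKO at day 8 it gave -0.066 to 0.66 for Gpx2, -0.076 to 0.24 for Srxn1 and -0.11 to 0.053 for Txnrd1. For the day with SKO it gave -0.26 to 0.062 for Srxn1. For the day without SKO it gave -0.25 to 0.033 for Gclc, -0.28 to 0.011 for Gsr and -0.072 to 0.22 for Nqo1. For the interaction it gave -0.41 to 0.32 for Gpx2 and -0.059 to 0.26 for Srxn1.

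The count of the 10 genes that passed for the day without SKO went from 2 to 1 with no SKO by virus interaction. With a mean-variance trend and robust empirical Bayes it went from 4 to 7 for the day with SKO (6 rose and 1, Txnrd1, fell) and from 1 to 2 for the interaction, and with dim genes left out to 2 for the interaction, where Nqo1 joined. Without 1 array the counts ran from 2 to 4 (day with SKO), 0 to 3 (day without SKO), 0 to 1 (interaction), 5 to 6 (SKO at day 4) and 6 to 7 (SKO at day 8). Fewer of all genes passed in such fits too. For the day with SKO 655 to 949 passed without an array of cluster B or C with SKO, against 1775. For the day without SKO 534 to 639 passed without 1 array of that arm, against 1730. A lost call thus does not by itself single out the array left out. The cause of the changed counts was not tested. The alternatives for pathway lists were added after the values were seen. No fit with the replicate number as a block could be made because the labels give none; arrays share virus and day across groups, and both are terms of the fit. Signal near the lower quartile limits the folds and the interaction of Slc7a11 and the values of Gpx2.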
